A study of Mus musculus with 5 samples.

Results

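The Gimap cluster is a run of 8 genes on mouse chromosome 6, Gimap8, Gimap9, Gimap4, Gimap6, Gimap7, Gimap1, Gimap5 and Gimap3 in genomic order, which spans 123.6 kb (chr6:48647234-48770851, build mm10). It was described through H3K27ac, acetylation of lysine 27 of histone H3, a mark of active promoters and enhancers. Of the 124158 peaks of the series, 29 overlapped the annotated span of a Gimap gene (GENCODE release M21) or the 10 kb on either side of it, and each was assigned to the nearest Gimap transcription start site (TSS). The peaks were taken by position and not by their counts, but the cluster was chosen with earlier results of these data known. Of the 29 peaks, 23 touched a gene span itself and 6 lay only in the added 10 kb.

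H3K27ac was profiled by CUT&Tag, in which an antibody brings a transposase to the mark and the transposase tags the DNA beside it, in Treg (regulatory T) cells that were sorted out of large intestinal tissue when the mice were 2 weeks old. All mice carried Foxp3Cre-YFP, a Cre recombinase driven by Foxp3, which defines Treg cells, so that recombination was confined by design to cells that had expressed Foxp3. The Ctrl mice had 1 floxed and 1 normal allele of Setd2 (Setd2 f/+), which encodes a histone H3 lysine 36 methyltransferase, and the KO mice had both alleles floxed (Setd2 f/f). Each group had 2 libraries of 60000 sorted cells pooled from 3 to 5 mice. The comparison asked how loss of Setd2 altered the H3K27ac landscape of these cells, here over the Gimap cluster.

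GIMAP proteins (GTPases of immunity-associated proteins) bind guanine nucleotides and sit mostly on intracellular membranes of lymphocytes. They are known for keeping mature T and B cells alive: mice and rats without functional Gimap5 lose peripheral T cells, and Gimap1 is required for mature lymphocytes. The genes lie together as a compact family and are expressed mainly in lymphoid cells.

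The 250 bases before the TSS are shown for the members on which the results below turn: Gimap1, under the widest and strongest peak, Gimap5 and Gimap3, with the highest levels per kb, and Gimap6, whose TSS peak was lower in both KO libraries. The sequences are from RefSeq (GRCm38.p6), written 5′ to 3′ along the gene's own strand, at chr6:48738797-48739046 (plus), chr6:48745947-48746196 (plus), chr6:48770852-48771101 (minus) and chr6:48708245-48708494 (minus). Capitals mark matches, on either strand, to the letters searched. These were CCGGAA and the variant form AGGAAG for ETS factors, TGTGGT and the variant form TGCGGT for RUNX factors, TAAACA for FOX factors, AGATAA for GATA factors, CTTTGA for TCF factors, CCAAT for NF-Y, the TATA box letters TATAAA, and GGGCGG for SP1. Overlapping matches were counted separately.
Gimap1: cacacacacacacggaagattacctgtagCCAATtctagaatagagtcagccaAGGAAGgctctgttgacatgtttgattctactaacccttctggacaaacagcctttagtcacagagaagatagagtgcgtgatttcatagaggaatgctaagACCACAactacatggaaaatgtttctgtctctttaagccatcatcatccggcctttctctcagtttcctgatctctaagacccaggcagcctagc
Gimap5: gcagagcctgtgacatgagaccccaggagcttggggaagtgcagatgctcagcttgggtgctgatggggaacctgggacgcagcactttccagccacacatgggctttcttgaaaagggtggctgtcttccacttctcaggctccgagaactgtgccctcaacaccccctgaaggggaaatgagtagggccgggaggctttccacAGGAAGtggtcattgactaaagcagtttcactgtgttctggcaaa
Gimap3: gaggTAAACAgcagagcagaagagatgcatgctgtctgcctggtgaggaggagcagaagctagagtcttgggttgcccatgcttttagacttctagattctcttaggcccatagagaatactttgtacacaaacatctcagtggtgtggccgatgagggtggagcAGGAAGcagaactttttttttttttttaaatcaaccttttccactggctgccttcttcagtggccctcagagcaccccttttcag
Gimap6: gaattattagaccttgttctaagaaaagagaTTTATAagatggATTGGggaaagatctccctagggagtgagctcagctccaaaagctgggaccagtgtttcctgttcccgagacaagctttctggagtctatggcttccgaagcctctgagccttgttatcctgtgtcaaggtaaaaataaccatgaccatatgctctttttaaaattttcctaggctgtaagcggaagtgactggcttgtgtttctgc
RefSeq held such a window for all 8 genes, with 2 for Gimap8, among 32851 windows in all. The ETS letters AGGAAG stood in a window of 7 of the 8 genes, all but Gimap6, and in 29.5% of all windows, while the other ETS form, CCGGAA, stood in none of the 8 and in 12.0% of all windows. TGTGGT was found for Gimap1, Gimap4 and Gimap7 (14.0% of all windows) and TGCGGT for Gimap9 (5.1%). CCAAT was found for Gimap1, Gimap6 and Gimap9 (33.8%), GGGCGG for Gimap7 and Gimap9 (32.7%), TAAACA for Gimap3 (12.0%) and TATAAA for Gimap6 (12.4%). AGATAA (9.99%) and CTTTGA (13.8%) were in none of them. The windows held 1 to 8 CG dinucleotides, with a median of 3 against 6 over all windows, and Gimap9 had the most. These matches describe letters in the windows and were not tested.

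The Gimap cluster was broadly acetylated. The 29 peaks covered 75.5 kb, or 61.1%, of its 123.6 kb, and all 17 annotated TSSs of the 8 genes lay inside a peak. The median width of the 29 peaks was 1802 bp, against 477 bp over all peaks, and 12 of them (41.4%) were wider than 3 kb, against 3.28% of all peaks. By position, 16 peaks were within 3 kb of a TSS (promoter), 9 others overlapped a gene at least in part (gene body) and 4 were intergenic. The widest, of 14119 bp (chr6:48729600-48743718), reached from the interval after Gimap7 over the TSS of Gimap1 to near its 3′ end, and 77 of the 124158 peaks (0.062%) were wider. Most neighbouring peaks were close together, with a median gap of 0.58 kb, and the longest gap, of 11.95 kb, lay between the last peak of Gimap5 and the first of Gimap3. Sequence copies were few: in 25 of the 29 peaks every stretch of 100 bases occurred once in the reference genome, and the lowest share was 88.2%, in a small peak before Gimap4. In the longest gap the share was 91.6%.

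**Figure D1:**
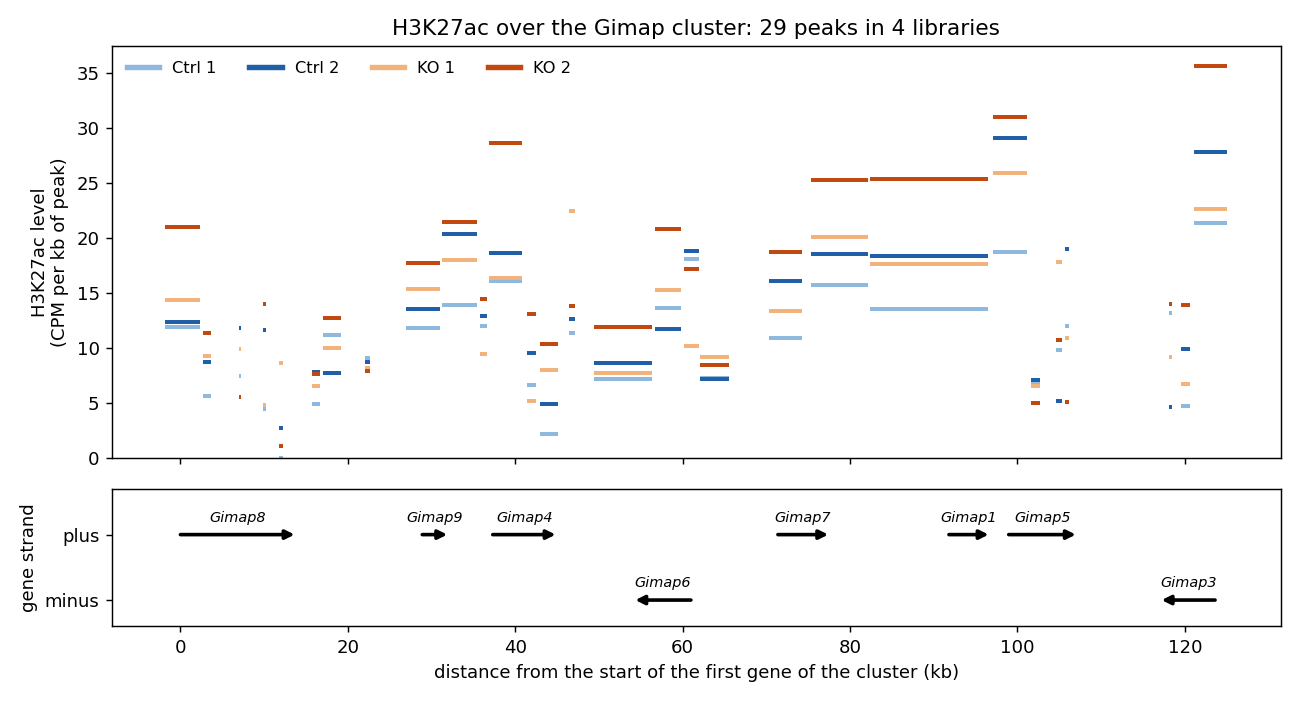
H3K27ac level of each of the 29 Gimap peaks (upper panel, CPM per kb of peak, 1 line per library drawn over the peak's width) and the 8 genes with their strand (lower panel) against distance from the start of Gimap8 in kb. The peaks at the starts of Gimap5 and Gimap3 were the densest, and KO 2 was the highest library over most of the wide peaks.

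Library depth and the level of the cluster ran in the same order. The libraries held 2395002 (Ctrl 1), 3630447 (Ctrl 2), 3007444 (KO 1) and 4712473 (KO 2) counts in all peaks. The 29 Gimap peaks took 2159 of these for Ctrl 1, 4090 for Ctrl 2, 3168 for KO 1 and 6658 for KO 2. As a share this was 0.0901% in Ctrl 1 (95% Clopper-Pearson interval 0.0864% to 0.094%), 0.113% in Ctrl 2 (0.109% to 0.116%), 0.105% in KO 1 (0.102% to 0.109%) and 0.141% in KO 2 (0.138% to 0.145%). The intervals cover counting error only. The part of depth in these differences was not tested.

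Summed over the cluster, the level in CPM (counts scaled to library size, with TMM normalization between libraries) came to 977 for Ctrl 1, 1220 for Ctrl 2, 1180 for KO 1 and 1600 for KO 2. The groups overlapped, because KO 1 lay just below Ctrl 2. The Ctrl mean was 1100 ± 170 CPM and the KO mean 1390 ± 293 CPM (SD, n = 2), a log2 ratio of 0.34, which was 0.07 without KO 2, 0.18 without Ctrl 1, 0.51 without Ctrl 2 and 0.53 without KO 1. Libraries of 1 group differed by a similar ratio: KO 2 was 1.35 times KO 1, and Ctrl 2 was 1.25 times Ctrl 1. A sum over chosen members was given no test, and with 2 libraries against 2 an exact two-sided permutation test cannot go below p = 0.333. In bulk cells, more cells carrying the mark and more mark per cell cannot be told apart.

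By position, the log2 ratios were of like size. Where 2 values are given for a group, replicate 1 comes first. Promoter peaks summed to 750 and 951 CPM in Ctrl and 891 and 1240 CPM in KO, a log2 ratio of 0.32. Gene body peaks summed to 184 and 227 CPM in Ctrl and 238 and 308 CPM in KO, a log2 ratio of 0.41. Most of this sum came from the strongest peaks of Gimap6 and Gimap7, which lay largely beyond the ends of those genes. The 4 intergenic peaks gave 43.4 and 39.3 CPM in Ctrl against 50.7 and 50.8 CPM in KO, a log2 ratio of 0.29. The groups did not overlap in the gene body and intergenic sums, and did in the promoter sum.

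Among the genes, no member passed the main test between KO and Ctrl, which took no account of replicate number. In edgeR's quasi-likelihood fit over 14445 genes, adjusted p was 1 for all 8, and 0 genes of the table (0%) were called at an adjusted p under 0.05 by edgeR or by DESeq2. At an unadjusted p under 0.05, none of the 8 stood among the 59 genes higher in KO (0.408% of those tested) or the 303 lower (2.1%). Both KO libraries were above both Ctrl libraries for 3 of the 8, Gimap8, Gimap9 and Gimap7, and for 12.7% of all genes tested. The log2 fold changes lay between 0.22 and 0.52, against a median of 0.00 over all genes and 0.07 over the 25% of genes with the highest levels, which held all members but Gimap8. KO 2 was the highest library for all 8 members, for 22.9% of all genes and for 38.7% of those with the highest levels.

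Gimap1, required for mature lymphocytes, had the highest summed level, all of it in the 14119 bp peak. It measured 192 and 259 CPM in Ctrl and 249 and 358 CPM in KO. The groups overlapped, and the log2 fold change was 0.43 ± 0.26 (SE, edgeR, unadjusted p = 0.133, adjusted p = 1). It was 0.10 without KO 2, 0.22 without Ctrl 1, 0.65 without KO 1 and 0.67 without Ctrl 2. The antisense gene Gimap1os and a readthrough gene model lie over the same peak, and H3K27ac carries no strand, so the signal cannot be divided among them.

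Gimap5, whose loss depletes peripheral T cells, had 96.4 and 138 CPM in Ctrl and 130 and 144 CPM in KO. Only Ctrl 1 stood low, and the log2 fold change of 0.22 ± 0.26 turned to -0.02 without that library and was 0.51 without Ctrl 2. Its TSS peak (chr6:48744300-48748431) held 77.4 and 120 CPM in Ctrl and 107 and 128 CPM in KO, with a log2 fold change of 0.25 ± 0.27.

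Gimap3, the close relative of Gimap5 on the other side of the longest gap, had 100 and 128 CPM in Ctrl and 109 and 164 CPM in KO. KO 1 lay between the Ctrl libraries, and the log2 fold change of 0.26 ± 0.28 turned to -0.10 without KO 2 and was 0.51 without KO 1. This sum held, beside its 3 peaks within 10 kb, 2 small peaks farther out that are nearest to its TSS. Without those 2 the log2 fold change was 0.27. Its TSS peak (chr6:48768373-48772326) held 84.6 and 110 CPM in Ctrl and 89.4 and 141 CPM in KO.

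Gimap7 had 149 and 189 CPM in Ctrl and 190 and 245 CPM in KO, so that KO 1 was only just above Ctrl 2. Its log2 fold change was 0.36 ± 0.24, and ran from 0.13 without KO 2 to 0.55 without Ctrl 2. Its strongest peak was not at the TSS but over its 3′ part and beyond (chr6:48722533-48729340), with 107 and 126 CPM in Ctrl and 137 and 172 CPM in KO. The groups did not overlap there (log2 fold change 0.41 ± 0.27, unadjusted p = 0.125).

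Gimap4, a T cell member linked to the course of apoptosis, had 153 and 201 CPM in Ctrl and 189 and 263 CPM in KO. The groups overlapped (log2 fold change 0.35 ± 0.26), and the value ran from 0.05 without KO 2 to 0.57 without Ctrl 2. Its strongest peaks were close in level: the TSS peak, given below with the peak at the 3′ end, and the peak that runs from the 3′ end of Gimap9 towards Gimap4 (chr6:48678447-48682666), which held 58.8 and 86 CPM in Ctrl and 76 and 90.6 CPM in KO (0.20 ± 0.29). The latter was the higher of the pair in Ctrl 2 and KO 1, and the TSS peak in Ctrl 1 and KO 2.

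Gimap6, which has been linked to autophagy, had 149 and 155 CPM in Ctrl and 151 and 207 CPM in KO. Ctrl 1, Ctrl 2 and KO 1 were nearly level and KO 2 stood above them. Its strongest peak in CPM, over its 3′ part and beyond (chr6:48696676-48703621), held 49.8 and 60.1 CPM in Ctrl and 53.7 and 82.9 CPM in KO. This peak was wide, and per kb it was below the Gimap6 TSS peak, at 8.87 against 16 CPM per kb (mean of the 4 libraries). The log2 fold change of the gene, 0.23 ± 0.24, was -0.05 without KO 2 and 0.43 without KO 1.

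Gimap8, whose protein has more than one GTPase domain, had the lowest summed level, 58.4 and 67.9 CPM in Ctrl and 76.8 and 104 CPM in KO. It had the largest log2 fold change of the 8, 0.52 ± 0.27 (unadjusted p = 0.0897), running from 0.25 without KO 2 to 0.71 without KO 1. Most of it came from the TSS peak (chr6:48645420-48649609), with 49.8 and 51.8 CPM in Ctrl and 60.4 and 87.9 CPM in KO.

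Gimap9 had 82.8 and 84.5 CPM in Ctrl and 95.4 and 112 CPM in KO, with the Ctrl libraries nearly equal and both KO libraries above them. Its TSS peak (chr6:48674170-48678247) held 48.4 and 55.4 CPM in Ctrl and 62.6 and 72.4 CPM in KO. The log2 fold change was 0.31 ± 0.24 (unadjusted p = 0.231) and ran from 0.16 without KO 2 to 0.41 without KO 1.

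**Figure D2:**
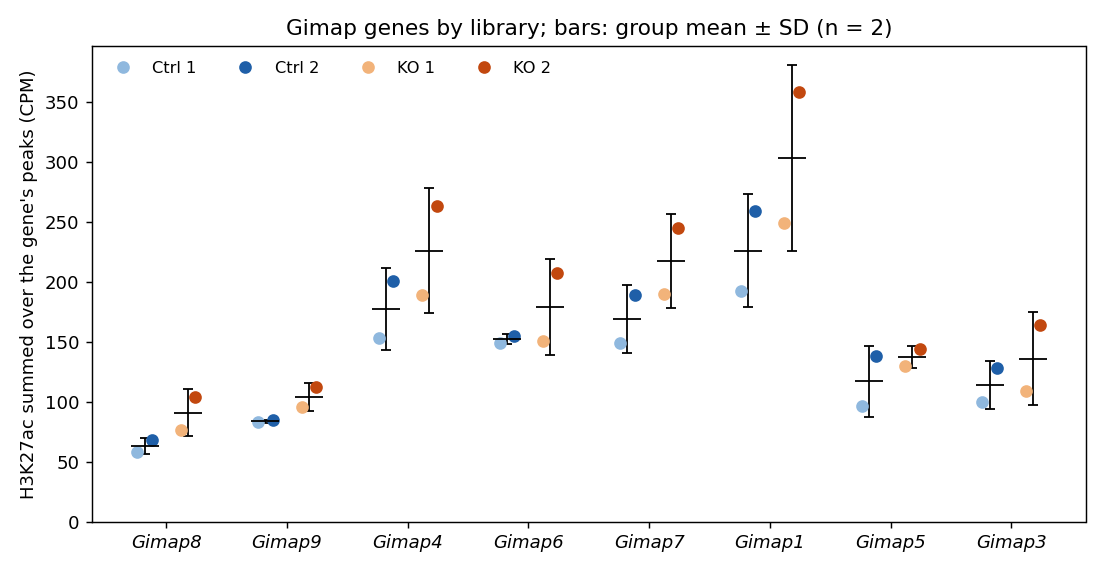
H3K27ac summed over the peaks of each Gimap gene (CPM) in the 4 libraries, in genomic order, with horizontal marks for the group means and bars for the SD (n = 2). KO 2 was the highest point for all 8 genes, and the groups separated for Gimap8, Gimap9 and Gimap7.

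Set against the width of their peaks, the genes fell in the order Gimap5 (20.1 CPM per kb, mean of the 4 libraries), Gimap3 (19.7), Gimap1 (18.7), Gimap7 (18.0), Gimap4 (15.5), Gimap8 (12.6), Gimap9 (12.1) and Gimap6 (10.8). The ranges over the 4 libraries overlapped for all neighbours in this order. Within each of the 4 libraries, however, Gimap7 was above Gimap4, Gimap4 above Gimap8, and Gimap9 above Gimap6, whereas the other neighbours changed places between libraries. The ends of the order separated also in range, since Gimap6 ran from 9.76 to 13.5 CPM per kb and Gimap5 from 15.2 to 22.7. Without its 2 outlying peaks Gimap3 came first, at 22.1 CPM per kb. Gimap5, Gimap3, Gimap1 and Gimap7 exceeded 96.2% or more of the genes tested in level per kb, and Gimap6, the lowest, exceeded 67.7%. The 4 densest genes were the 4 last in the genomic order.

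Of the 29 peaks, 27 had at least 10 counts in at least 2 libraries and were tested, and the 2 left out were small peaks in the body of Gimap8. By edgeR 0 of the 27 were called, with an adjusted p of 0.998 for each, against 1 peak among 74550 (0.00134%). DESeq2 also called 0. At an unadjusted p under 0.05, 1 was higher in KO (1.45% of all peaks) and 0 were lower (2.79% of all peaks). The log2 fold change was above 0 for 22 and below 0 for 5, with a median of 0.29 (0.05 without KO 2, 0.18 without Ctrl 1, 0.50 without Ctrl 2, 0.52 without KO 1), against -0.01 and 49.2% above 0 over all tested peaks. Strong peaks as a class lay higher in KO: in the top decile by level, which held 11 of the 27, the median was 0.16 and 74.2% were above 0. KO 2, the deepest library, was the highest for 49.4% of the top decile, 22.5% of all tested peaks and 19 of the 27. Both KO libraries were above both Ctrl libraries for 9 of the 27 (16.9% of all peaks) and below for 4 (16.4%). Without KO 2, 14 of the tested peaks were above 0. With an offset that follows level (loess) in place of TMM, the log2 fold changes of the strong peaks were smaller, 0.12 for the Gimap1 peak, 0.17 for the Gimap7 3′ peak, 0.18 for the Gimap4 TSS peak, 0.04 for the Gimap5 TSS peak and 0.02 for the Gimap3 TSS peak. In the fit over genes, with its own loess offset, values changed less: 0.33 (Gimap1), 0.30 (Gimap7), 0.28 (Gimap4), 0.20 (Gimap5) and 0.25 (Gimap3).

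**Figure D3:**
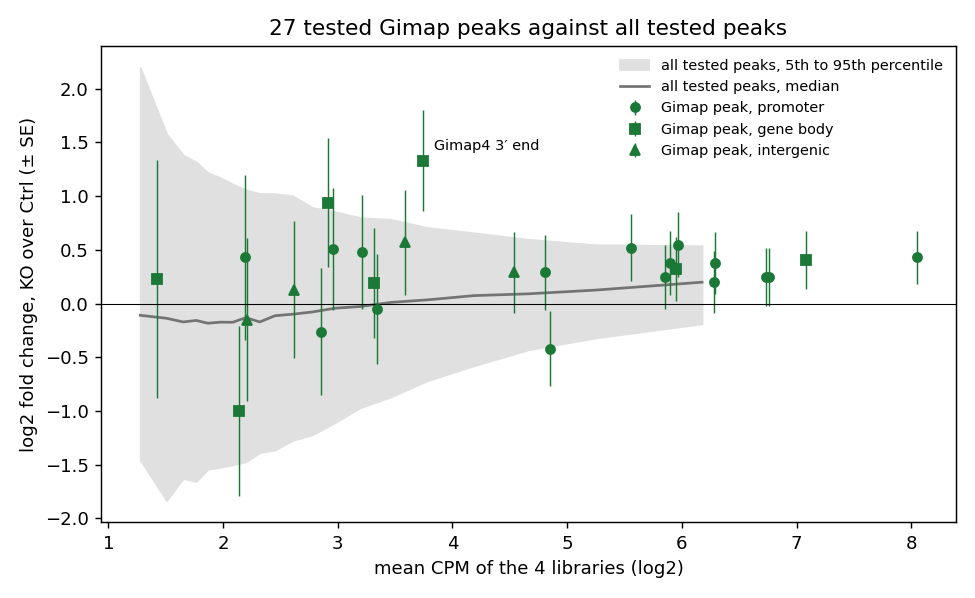
Log2 fold change of KO over Ctrl (± SE, edgeR) of the 27 tested Gimap peaks against their mean level (log2 CPM), over the median and the 5th to 95th percentile of all tested peaks by level. The peak at the 3′ end of Gimap4, at 1.33, stood farthest above 0, and the median of all peaks rose with level.

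The peak with the lowest p covered the 3′ end of Gimap4 (chr6:48690234-48692326) and held 10 counts for Ctrl 1, 35 for Ctrl 2, 45 for KO 1 and 91 for KO 2. This was 4.52 and 10.4 CPM in Ctrl against 16.8 and 21.8 CPM in KO, so the groups did not overlap. The log2 fold change was 1.33 ± 0.47 (edgeR, unadjusted p = 0.00498, adjusted p = 0.998), with a range of 0.89 to 2.10 over the alternatives. It was 0.89 without Ctrl 1 and 2.10 without Ctrl 2. The intergenic peak just beyond it held 9.05 and 10.1 CPM in Ctrl and 17.9 and 11 CPM in KO (log2 fold change 0.57 ± 0.49), whereas the TSS peak of Gimap4 held 62.9 and 72.9 CPM in Ctrl and 64.1 and 112 CPM in KO (0.38 ± 0.29, and -0.12 without KO 2).

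The Gimap6 TSS peak (chr6:48707428-48709229) went the other way from its neighbours. It held 32.6 and 33.9 CPM in Ctrl and 18.3 and 30.9 CPM in KO, with a log2 fold change of -0.42 ± 0.35 (unadjusted p = 0.228). The next peak into the gene held 41.6 and 36 CPM in Ctrl and 46.6 and 63.7 CPM in KO (0.52 ± 0.31), and the peak before the TSS held 25.3 and 25 CPM in Ctrl and 32 and 29.7 CPM in KO (0.29 ± 0.35). None of these passed the test, and the peak was described after its values were seen. The other 4 peaks with a log2 fold change below 0 were small, with at most 12 CPM in any library.

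Genes on either side of the cluster had a lower median level per kb. Of 18 protein-coding genes with a TSS within 300 kb of its ends, 12 had a peak, and their levels ran from 4.76 to 12.8 CPM per kb, with a median of 8.39, against 10.8 to 20.1 for the Gimap genes. Zfp775 (12.8), Atp6v0e2 (12.2) and Zfp467 (11.2) lay within the Gimap range. Summed, the 12 held 254 and 240 CPM in Ctrl and 243 and 261 CPM in KO; all 4 libraries were nearly level. Of the 11 tested, 8 had a log2 fold change above 0 and 0 were called, with 0 at an unadjusted p under 0.05, and the median was 0.15. Over all genes tested, 50.2% were above 0. Krba1 held 56.6 and 57.4 CPM in Ctrl and 28.7 and 51.8 CPM in KO (log2 fold change -0.49 ± 0.34). The difference between the cluster and its neighbours was not tested.

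**Figure D4:**
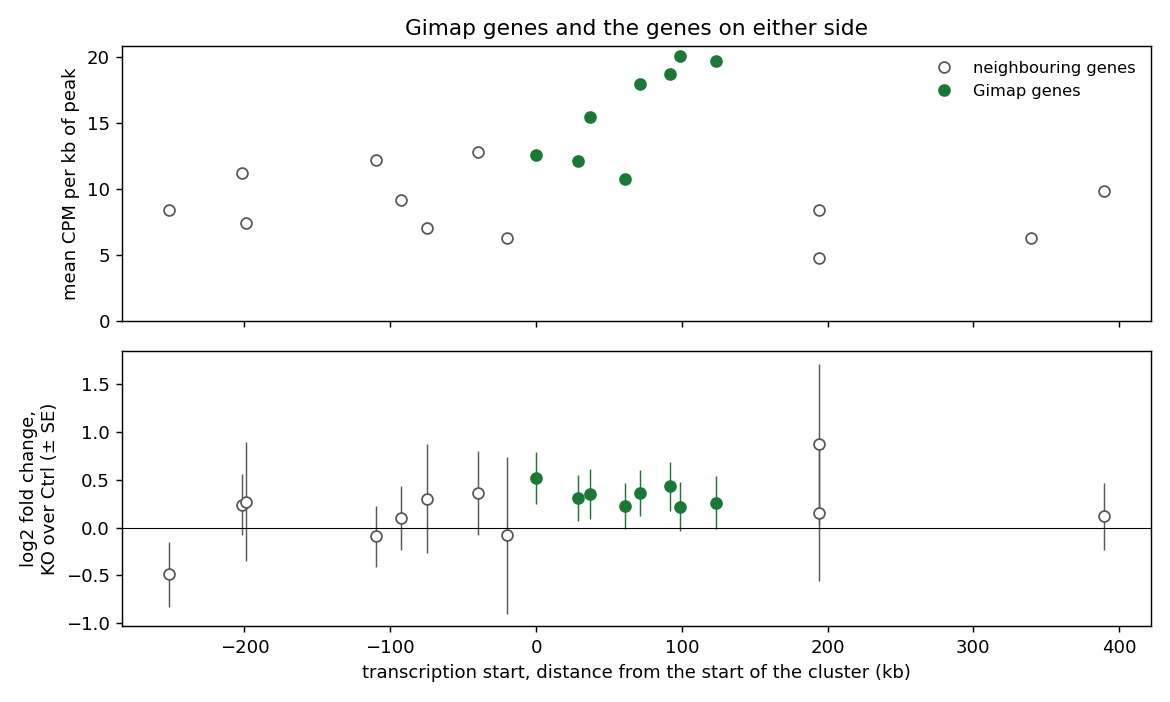
Mean level per kb of peak (upper panel) and log2 fold change of KO over Ctrl ± SE (lower panel) of the Gimap genes (filled) and the neighbouring genes with peaks (open) against the distance of the TSS from the start of the cluster in kb. The Gimap genes lay between 10.8 and 20.1 CPM per kb, and their log2 fold changes between 0.22 and 0.52.

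The other genes of lymphocyte maintenance did not pass the test either. Of a list of 20 genes for survival, homing and T cell identity, 20 were tested, 16 had a log2 fold change above 0, 0 were called and 1 had an unadjusted p under 0.05, with a median of 0.14. The highest were Bak1, which promotes apoptosis, with 21.3 and 44 CPM in Ctrl and 32.8 and 64 CPM in KO (0.56 ± 0.45), and Ets1, a lymphocyte transcription factor, with 1600 and 1810 CPM in Ctrl and 2110 and 2600 CPM in KO (0.47 ± 0.16, edgeR, unadjusted p = 0.0177, adjusted p = 1). The lowest were Il7r, the receptor of the survival cytokine IL-7, at -0.10 ± 0.23, and Bcl2, which protects from apoptosis, at -0.09 ± 0.18.

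The genes whose pattern over the 4 libraries was most like that of the cluster sum, by Euclidean distance of centred log2 CPM among 3605 well-acetylated genes, were Rhoh (distance 0.0205), Ms4a18 (0.0299), Cotl1 (0.0325), Rinl (0.0326) and Actg1 (0.0334). Rhoh, a GTPase-like protein of blood cells, held 642 and 784 CPM in Ctrl and 768 and 1040 CPM in KO, in the same order of libraries as the Gimap cluster. With 4 libraries such a likeness is a description.

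The cells carried the marks of Treg cells. Foxp3, Ctla4, Il2ra, Ikzf2, Tnfrsf18, Cd3e and Cd4 summed to 3130 and 3400 CPM in Ctrl and 3740 and 4260 CPM in KO, so that their sum was higher in both KO libraries, with a median log2 fold change of 0.28. Both KO libraries were above both Ctrl libraries for 6 of these 7 genes and for 12.7% of all genes tested. Cd4 overlapped, with 117 and 176 CPM in Ctrl and 131 and 150 CPM in KO. Over the 25% of genes with the highest levels, which held all 7, the median log2 fold change was 0.07 and 62% were above 0. The sums of markers of other cells were far lower than that of the Treg and T cell markers, but sums grow with peak width (126 kb for Ikzf2). In median level per kb the gap was smaller, 15.1 CPM per kb against 5.74 to 7.88 for the other cell types. Single genes came close, as Ikzf2 at 11.4 and Cd79a, a B cell marker, at 10.4. The CD8 and NK sum, from Cd8a and Cd8b1 alone, was higher in both KO libraries (25.4 and 18 CPM, against 16.7 and 11.6 CPM in Ctrl). Each of these genes overlapped between the groups, with 6 to 55 counts in a library. The myeloid sum was lower in both, KO 2 only just (89.4 and 103 CPM, against 104 and 120 CPM in Ctrl). The epithelial sum was lower in both as well (41 and 40.8 CPM, against 48.4 and 51.2 CPM in Ctrl). Of the myeloid and epithelial genes, only Csf1r had both KO libraries below both Ctrl libraries. Cd14, Epcam, Vil1 and Cdx2 overlapped, as did Itgam, which had a log2 fold change of 0.21 ± 0.35. B cell markers (53.8 to 81.5 CPM) and stromal markers (15.1 to 28.9 CPM) overlapped between the groups. Ms4a1, Lyz2, Krt20 and Ncr1 had no peak. Their part in the Gimap values was not tested. Setd2 itself held 30.3 and 36.6 CPM in Ctrl and 33.5 and 41.7 CPM in KO, and since H3K27ac at a gene is not its RNA, this does not check the deletion.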

How the data were processed

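H3K27ac CUT&Tag libraries of sorted Treg cells were compared as 2 Ctrl against 2 KO. The authors trimmed reads, aligned them with Bowtie2 to mm10, called peaks with MACS2, merged the peaks of the libraries and deposited raw counts per merged peak from bedtools. Tool versions are not given in the sources used here. Peaks were called on the same libraries that are compared. The IgG library is not analysed here.

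Counts were tested as deposited in R 4.3.3 with edgeR 4.0.16 (quasi-likelihood, TMM, no covariate) over all peaks, and over all genes from counts summed by nearest protein-coding TSS, keeping those that reached 10 counts in 2 or more libraries, with Benjamini-Hochberg adjustment over everything tested. DESeq2 1.42.0, other scalings (loess by limma 3.58.1), count minimums, a replicate block and leaving out each library were alternatives. The scripts were tested on simulated data. Libraries are pools of animals, so the spread is that between 2 pools a group. In the peak fit edgeR drew each peak's variance wholly to the trend over peaks of like level. The SE and p of a peak therefore do not measure the spread of its own values. In the gene fit (6.35 prior degrees of freedom) a gene's own spread counted in part. Genes named are the 8 members, each member's strongest peak, peaks at an unadjusted p under 0.05, neighbours within 300 kb, the 2 highest and 2 lowest of the lymphocyte list and the 5 most alike genes. Members and lists were chosen with earlier results of these data known.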

Additional observations from a re-analysis of the deposited data

How the results depend on the processing

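No member peak was called under any of the 12 alternatives. At an unadjusted p under 0.05, 0 member peaks were higher with a minimum of 50 counts in 2 libraries and 7 with the replicate block, and 0 to 4 when libraries were left out in turn. The shares of all peaks at that p under these settings are not given, so these counts have no background to be read against. With the replicate block, calls also rose over all peaks, as given below. The 7 therefore cannot be read as particular to the Gimap peaks. Of the 14 peaks tested at 50 counts, 13 had a log2 fold change above 0, and 14 to 23 did when libraries were left out. Leaving out each library gave log2 fold changes of -0.02 to 0.51 for Gimap5, -0.05 to 0.43 for Gimap6, -0.10 to 0.51 for Gimap3, -0.12 to 0.71 for the Gimap4 TSS peak, -0.07 to 0.57 for the strongest Gimap6 peak, -0.03 to 0.61 for the Gimap5 TSS peak and -0.16 to 0.52 for the Gimap3 TSS peak. Gimap5 and its peak turned without Ctrl 1 and the others without KO 2. The cluster log2 ratio ranged from 0.07 to 0.53 on leaving out libraries and was 0.28 with total counts as library size. With a loess offset on level, the median over peaks was 0.19, and the strongest peaks of the other genes stood at 0.38 (Gimap8), 0.22 (Gimap9) and 0.14 (Gimap6). The loess fit over genes gave 0.56 for Gimap8, 0.33 for Gimap9 and 0.19 for Gimap6, near the values with TMM.

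The labels give both groups the replicate numbers 1 and 2 but say nothing of a shared litter or day. Same-numbered libraries deviated from their group means with a correlation of 0.25 over all tested peaks, from 2 pairs. With the replicate block, edgeR called 152 of the 74550 tested peaks higher and 59 lower, and 765 of the 14445 tested genes in either direction. Among the 765 were Gimap7 (log2 fold change 0.36, adjusted p = 0.0448, range 0.0448 to 1 over the alternatives) and Gimap1 (0.42, adjusted p = 0.00553, range 0.00553 to 1). The lowest adjusted p of a member peak was 0.0591. The fit with the block has fewer residual degrees of freedom than the 2 of the main fit. Replicate 2 was also the deeper library in both groups, so the block and depth cannot be told apart. The cause was not tested. Leaving the 2 outlying peaks out of Gimap3 was chosen after seeing the data. With 2 libraries a group, the precision is limited by the spread between them rather than by counts for the wide peaks.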
